A study of Solanum tuberosum with 6 samples.

Results

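AGPS1, LOC102596766, LOC102577532 and AMYA1 are potato genes of starch synthesis and glucan breakdown, and their transcripts were followed in the leaves of hybrid plants of high and low phytotoxic potential. AGPS1 encodes a subunit of ADP-glucose pyrophosphorylase, LOC102596766 the plastid glucan phosphorylase L-1, LOC102577532 the glucan phosphorylase H and AMYA1 an alpha-amylase. These 4 genes, of 32768 in the count table, were taken by name, and they were chosen from their measured values in the same contrast, so their levels and differences are given as a description with no test. In the data, the transcript of LOC102577532 was higher in bulk C than in bulk D, the transcripts of AGPS1 and LOC102596766 were lower in bulk C, and that of AMYA1 overlapped between the bulks.

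The plants came from a diploid potato population named 15-1, the F1 of a Solanum hybrid, DG 88-89, used as seed parent and the wild species S. chacoense used as pollen parent. They were grown untreated in a greenhouse, and leaves were sampled at full anthesis. Bulk C had low total glycoalkaloids and high phytotoxic potential, and bulk D had low total glycoalkaloids and low phytotoxic potential. A low total was common to both, while the study found that the make-up of the glycoalkaloids differed between the bulks. The bulks were set against each other for what accompanies phytotoxic potential, the capacity of a leaf extract to hold back the growth of another plant. Each bulk sample joined leaf material of 3 F1 individuals in equal parts, so a library measures a pool and not a single genotype. The methods of the study call the replicates of a bulk biological, and whether they hold the same individuals is not given in the sources used here. The p-values given below measure the spread between these libraries. Bulk C was represented by libraries C1, C2 and C3 and bulk D by libraries D1 and D2. On the reading of the header used here, no count column holds library D3, which was not analysed here.

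Starch is built in the plastid from ADP-glucose, which ADP-glucose pyrophosphorylase makes from glucose 1-phosphate and ATP in the first committed step of the pathway. Starch synthases add the glucose of ADP-glucose to growing chains, and branching enzymes introduce the branch points. In leaves, starch is stored by day and broken down at night: glucan dikinases phosphorylate the granule surface, beta-amylases release maltose, alpha-amylases cut inside the chains, and debranching enzymes remove the branches. Glucan phosphorylases take single glucose units from the chain ends as glucose 1-phosphate, the L forms inside the plastid and the H form in the cytosol, where it acts on glucans formed from maltose.

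The libraries held between 22070364 counts (D2) and 22769554 counts (C2), and levels are given as CPM, the counts of a gene relative to the library size after scaling by the TMM method. After a filter on low counts, 19630 genes were tested with edgeR's quasi-likelihood test, and 6760 passed a Benjamini-Hochberg adjusted p of 0.05. Of these, 3111 were higher and 3649 lower in C. When the library totals were used with no further scaling, the median of all log2 FCs moved by -0.10, and the split became 1966 higher and 4712 lower. The header of the count table had to be read with its names moved by 1 field, and C3 is the only library whose bulk rests on that reading, for which reason results are also given without it. Libraries were compared by the squared difference of counts relative to its sampling variance, averaged over genes with enough summed counts. By this measure of variance C3 stood at 8.58 from C1 and at 5.9 from C2, and at 58 from D1 and 58.3 from D2. D1 and D2 stood at 13.8, and no pair was close enough to count as 1 library. A check of the tissue gave 8 leaf genes (small subunit of Rubisco and chlorophyll-binding proteins) a summed level of 11280, 9505 and 10370 CPM in C. In D the sum was 8067 and 9448 CPM, lower than in every library of C. RBCS-C, the largest part of the sum, overlapped, with 8568, 7188 and 7867 CPM in C and 6857 and 8053 CPM in D. The other leaf genes were found by product names that the study gave to genes picked on these libraries. The difference of the sum is therefore not independent evidence, and its part in the results was not tested. The 5 genes of patatin, the storage protein of tubers, each averaged below 1 CPM over the libraries.

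All 4 genes had counts in every library, and all 4 passed the filter. One of them, LOC102577532, had every library of C above every library of D, which held for 26.8% of the tested genes. The 2 genes AGPS1 and LOC102596766 had every library of C below every library of D, which held for 30.3% of the tested genes. The fourth, AMYA1, overlapped. The genes were chosen with these values known, so nothing is read from those counts.

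In the first step of starch synthesis, AGPS1 was covered by 230, 253 and 236 counts in C1, C2 and C3 and by 444 and 458 counts in D1 and D2. As levels these were 10.9, 11.1 and 10.7 CPM in C and 18.1 and 20.6 CPM in D. The C libraries lay closer to one another than counting error at such counts would give on average. Their closeness is therefore not taken as precision. The bulks did not overlap. The mean level was 10.9 ± 0.186 CPM in C (SD, n = 3) and 19.3 ± 1.79 CPM in D (SD, n = 2), with a log2 FC (C over D) of -0.83 and a standard error (SE) of 0.11. D thus held 1.78 times the level of C, and the absolute log2 FC of AGPS1 was larger than that of 85.9% of the tested genes. Without C3 the log2 FC was -0.82. It was -0.93 without D1, -0.73 without D2 and -0.93 with library totals alone.

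Other genes of ADP-glucose pyrophosphorylase had the opposite sign. LOC102577790 had 574, 568 and 616 CPM in C and 472 and 502 CPM in D. LOC102582750, which RefSeq lists with the synonym agpS3, had 120, 145 and 155 CPM in C and 113 and 104 CPM in D. Both were higher in C in edgeR's quasi-likelihood test, LOC102577790 with a log2 FC of 0.27 (SE 0.09, adjusted p = 0.0338) and LOC102582750 with a log2 FC of 0.37 (SE 0.11, adjusted p = 0.0197). Both genes were on the list that the study had drawn from these libraries, so their direction is not independent evidence. Both calls were lost under several alternatives. With library totals alone the log2 FC of LOC102577790 was 0.17 (adjusted p = 0.0909) and that of LOC102582750 was 0.27 (adjusted p = 0.114). With the replicate number as a block the adjusted p was 0.497 for LOC102577790 and 0.27 for LOC102582750. The adjusted p of LOC102577790 was 0.0665 without C2, 0.147 without C3, 0.178 without D1 and 0.0701 without D2, and that of LOC102582750 was 0.0614 without C2, 0.105 without C3 and 0.108 without D2. The third gene of the enzyme, LOC102600909 (synonym agpS2), averaged 17.5 ± 1.74 CPM in C and 15.6 ± 0.102 CPM in D, which did not pass the test (log2 FC 0.17, SE 0.12, adjusted p = 0.303). Neither AGPS1 nor these genes are assigned here to the large or the small subunit.

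Set within a library, where no scaling enters, AGPS1 differed from these genes without any overlap between bulks. There were 0.0906, 0.0764 and 0.0690 counts of AGPS1 per count of LOC102582750 in C1, C2 and C3, against 0.161 and 0.199 in D1 and D2. Against LOC102577790 the ratios were 0.0189, 0.0195 and 0.0174 in C and 0.0382 and 0.0410 in D. Both ratios were lower in all libraries of C, by 1.19 on the log2 scale for LOC102582750 and by 1.09 for LOC102577790. The partner genes were picked after their values had been seen, and the size of each ratio also depends on the lengths of the transcripts, so only its difference between bulks is described.

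**Figure D1:**
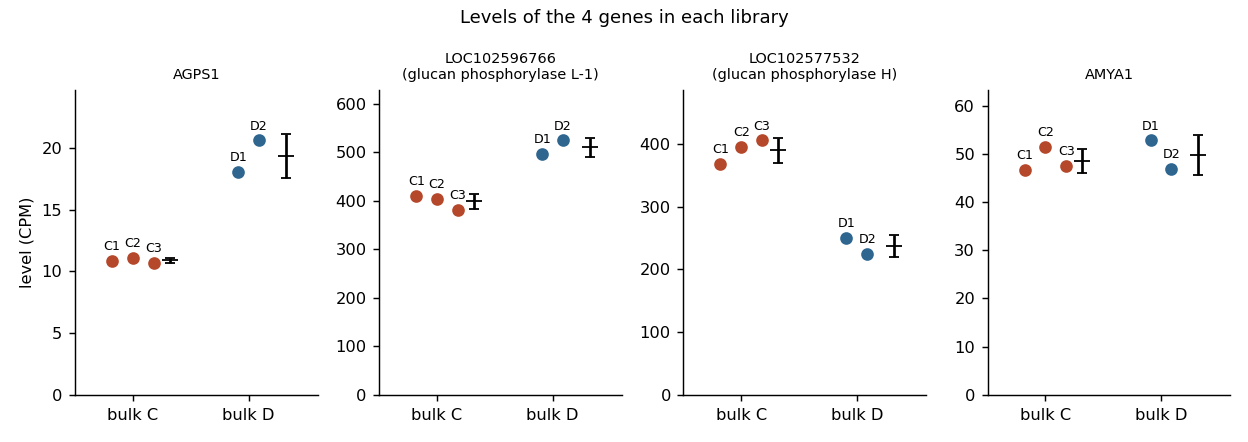
Levels of AGPS1, LOC102596766 (glucan phosphorylase L-1), LOC102577532 (glucan phosphorylase H) and AMYA1 in CPM, each panel with its own axis from 0, with 1 point per library (C1 to C3 at the left in red, D1 and D2 at the right in blue) and the mean with SD beside them. LOC102577532 stood at 368 to 406 CPM in C and at 225 and 250 CPM in D, AGPS1 and LOC102596766 lay lower in C, and the points of AMYA1 overlapped.

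The plastid phosphorylase gene LOC102596766 (L-1) had 8692, 9240 and 8425 counts in C1, C2 and C3 and 12190 and 11662 counts in D1 and D2. In CPM these were 410, 404 and 382 in C and 496 and 524 in D. All libraries of C were below those of D, with a gap between C1 and D1 that was wider than the whole range within C. The means were 399 ± 14.9 CPM in C (SD, n = 3) and 510 ± 20.2 CPM in D (SD, n = 2), a log2 FC of -0.36 (SE 0.08). D held 1.28 times the level of C. A change of this size lies near the middle of all genes, since 57.6% of the tested genes had a smaller absolute log2 FC and the median absolute log2 FC of all of them was 0.29.

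The cytosolic counterpart, LOC102577532 (H), had 7791, 9045 and 8942 counts in C1, C2 and C3 and 6151 and 5005 counts in D1 and D2. Its levels were 368, 396 and 406 CPM in C and 250 and 225 CPM in D. C1 was the lowest of C and D1 the higher of D, and the bulks remained well apart. The means were 390 ± 19.6 CPM in C (SD, n = 3) and 238 ± 17.8 CPM in D (SD, n = 2), a log2 FC of 0.71 (SE 0.09), which is 1.64 times the level of D. The absolute log2 FC was larger than that of 82.4% of the tested genes. Without C3 it was 0.68 for LOC102577532 and -0.32 for LOC102596766, so both genes kept their direction without the library whose bulk rests on the reading of the header.

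Within a library, C1, C2 and C3 held 0.896, 0.979 and 1.06 counts of LOC102577532 per count of LOC102596766, against 0.505 and 0.429 in D1 and D2. Every ratio of C was above every ratio of D. The mean log2 ratio was 1.07 higher in C, a 2.1-fold difference, and it lay between 0.95 and 1.19 when each library was left out in turn. As a ratio of counts in the same library it carries no scaling between libraries, and it was described without a test because both genes were chosen on this contrast.

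A gene of the plastid form L-2, STP-1, was not among the genes chosen and could be tested. STP-1 had 2931, 5013 and 4699 counts in C1, C2 and C3 and 2416 and 1546 counts in D1 and D2. In CPM these were 138, 219 and 213 in C and 98.3 and 69.5 in D. The libraries of both bulks were spread widely, C1 far below the other C libraries and D1 above D2, but no library of D reached C1. STP-1 rose in C by a log2 FC of 1.18 (SE 0.19, adjusted p = 0.000621, edgeR's quasi-likelihood test). This gene was on the list that the study had drawn from these libraries, so its direction is not independent evidence. The plastid forms L-1 and L-2 therefore differed in opposite directions between the bulks. The counts of STP-1 per count of LOC102596766 were 0.337, 0.542 and 0.558 in C and 0.198 and 0.133 in D. The mean log2 ratio was higher in C by 1.53. Between LOC102577532 and STP-1 the bulks overlapped, with 2.66, 1.80 and 1.90 counts of the H gene per count of the L-2 gene in C and 2.55 and 3.24 in D. Genes of the phosphorylase family are similar in sequence, and reads of one could have been counted on another or dropped. How far this touched the counts was not tested.

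Taken as a sum, the 3 phosphorylase genes reached 979 ± 55.0 CPM in C (SD, n = 3) and 832 ± 17.96 CPM in D (SD, n = 2). Counts were summed with no scaling for transcript length, so a share is one of counts and not of transcripts, and only its difference between the bulks is described. LOC102596766 made up 44.8%, 39.7% and 38.2% of the summed counts in C1, C2 and C3, against 58.7% and 64.0% in D1 and D2. LOC102577532 made up 40.1%, 38.8% and 40.5% in C and 29.6% and 27.5% in D. The share of the H gene was nearly constant within C, where the libraries differed in how the remainder was divided between L-1 and L-2. STP-1 had shares of 15.1%, 21.5% and 21.3% in C and of 11.6% and 8.49% in D. The 95% Wilson intervals of the H gene reached from 38.2% to 39.45% in C2, the lowest share of C. They reached from 29.0% to 30.3% in D1, the higher of D, and cover counting error only.

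**Figure D2:**
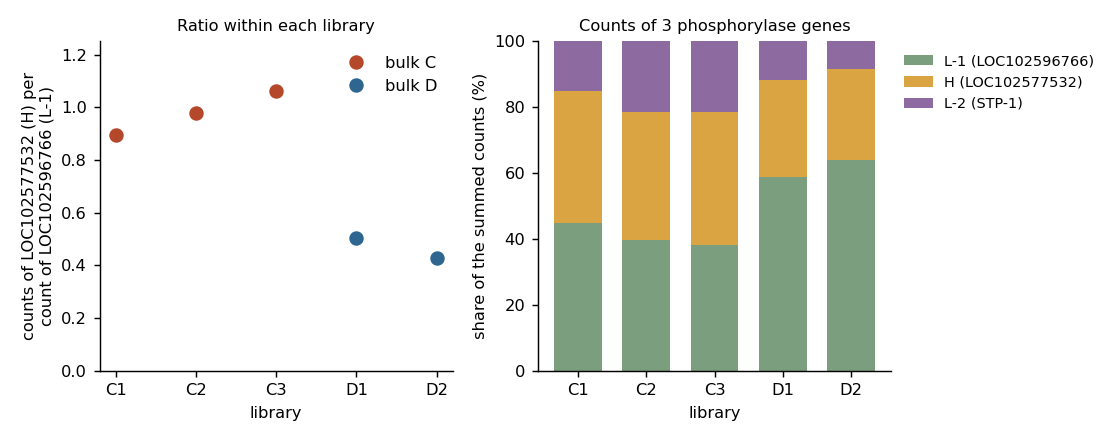
Left, counts of LOC102577532 (glucan phosphorylase H) per count of LOC102596766 (glucan phosphorylase L-1) in each library; right, the share in percent of L-1, H and L-2 (STP-1) in the summed counts of the 3 genes. The ratio stood between 0.896 and 1.06 in C1 to C3 and at 0.505 and 0.429 in D1 and D2, and L-1 made up 38.2% to 44.8% of the sum in C and 58.7% to 64.0% in D.

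The alpha-amylase gene AMYA1, for which RefSeq also lists the synonym amyA2, had 990, 1174 and 1046 counts in C1, C2 and C3 and 1297 and 1043 counts in D1 and D2. The levels were 46.7, 51.4 and 47.4 CPM in C and 52.8 and 46.9 CPM in D. D1 was the highest of all libraries, D2 lay between C1 and C3, and the bulks overlapped. Means of 48.5 ± 2.51 CPM in C (SD, n = 3) and 49.8 ± 4.14 CPM in D (SD, n = 2) gave a log2 FC of -0.04 (SE 0.09). Only 7.49% of the tested genes had a smaller absolute log2 FC. The sign turned without D1, where the log2 FC was 0.04, and the values with each library left out in turn lay between -0.12 and 0.04.

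Both other alpha-amylase genes named here rose in C. They were on the list that the study had drawn from these libraries, so their direction is not independent evidence. LOC102599630, annotated as the chloroplastic alpha-amylase 3, had 416, 463 and 440 CPM in C and 240 and 221 CPM in D, with no overlap (log2 FC 0.93, SE 0.09, adjusted p = 1.45e-05, edgeR's quasi-likelihood test). LOC102579717 averaged 28.8 ± 0.903 CPM in C and 16.2 ± 0.18 CPM in D (log2 FC 0.83, SE 0.10, adjusted p = 6.1e-05). Within a library, the counts of AMYA1 per count of LOC102599630 were 0.112, 0.111 and 0.108 in C1, C2 and C3, against 0.220 and 0.213 in D1 and D2. This ratio, chosen after the values had been seen, was lower in C by 0.97 on the log2 scale, and its libraries agreed within each bulk more closely than the levels of AMYA1 did.

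The other genes of the pathway were taken from a list of 26, all of which passed the filter. Of these, 18 rose and 3 fell in C and 5 did not pass the test, which is 69.2% higher and 11.5% lower, against 15.8% of all tested genes higher and 18.6% lower in C. The median log2 FC of the list was 0.55, and that of all tested genes was -0.01. For 21 of the genes the list rests on gene ontology terms and product names that the study itself had given to genes picked on these libraries. All 21 passed the test here, 18 higher and 3 lower, and neither this count nor the median of the list is independent evidence of a direction. The 11 genes found by symbol or RefSeq synonym, 6 of which are also among the 21, had 5 higher and 1 lower in C. The 5 that are not among the 21 had a median log2 FC of 0.17, with 3 above 0. These 5 are what remains once the genes picked on these libraries are taken out. A low number of calls among them is therefore partly set by that choice and is not independent evidence either. Of the 5 genes found by symbol or synonym alone, 0 passed the adjusted threshold in edgeR, in DESeq2 or in limma's voom method, while 1, 2 and 1 of them had an unadjusted p under 0.05 in these tools in that order, and 2 were called lower in C with the library totals alone (GBSS and LOC102579912). One, LOC102595076, was called higher in C with no filter on low counts (adjusted p = 0.0484), without C1 (0.0156) and without D1 (0.0446). Without C3, 15 of the 26 genes were higher and 3 lower. In bulked leaf, fewer cells that express a gene and less of its RNA per cell cannot be told apart.

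Among the starch synthase genes, which extend the chains, the members differed in direction. LOC102583115 (synonym SS2) fell in C, with 64.6, 68.6 and 69.1 CPM in C and 117 and 122 CPM in D (log2 FC -0.83, SE 0.08, adjusted p = 1.17e-05). Its log2 FC was equal to that of AGPS1 to 2 decimals. LOC102577674 (synonym SS3) rose, with a mean of 214 ± 23.1 CPM in C and 147 ± 12.4 CPM in D (log2 FC 0.55, SE 0.10, adjusted p = 0.00201), and so did LOC102600045, with 220 ± 33.9 CPM in C and 135 ± 17.6 CPM in D (log2 FC 0.71, SE 0.13, adjusted p = 0.00145). GBSS, the granule-bound synthase that makes amylose, had 519, 512 and 513 CPM in C and 562 and 561 CPM in D. These libraries lay apart without overlap, yet the difference did not pass the test (log2 FC -0.13, SE 0.08, adjusted p = 0.259). With library totals alone it did, at a log2 FC of -0.23 and an adjusted p of 0.0219. Of the branching enzyme genes, LOC102590711 (synonym Sbe-II) rose in C, with 280 ± 19.1 CPM in C and 179 ± 9.56 CPM in D (log2 FC 0.65, SE 0.09, adjusted p = 0.000241). LOC102596498 (synonym SBE1) averaged 25.0 ± 1.00 CPM in C and 20.9 ± 1.45 CPM in D, short of the threshold (log2 FC 0.26, SE 0.10, adjusted p = 0.0639).

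Of the 12 listed genes on the side of breakdown, 10 rose and 1 fell in C, against 15.8% of all tested genes higher and 18.6% lower, and the median log2 FC was 0.76. All 11 of these called genes are among the 21 that the study had picked on these libraries, so their direction is not independent evidence. R1, the alpha-glucan water dikinase that phosphorylates the starch granule, had 561, 707 and 639 CPM in C and 284 and 220 CPM in D (log2 FC 1.34, SE 0.13, adjusted p = 1.46e-05). GWD3, a further glucan dikinase gene, averaged 404 ± 31.5 CPM in C and 243 ± 28.7 CPM in D (log2 FC 0.73, SE 0.10, adjusted p = 0.000248). The beta-amylase gene LOC102577806 (PCT-BMYI) had the largest log2 FC of the list, with 220, 216 and 198 CPM in C and 71.6 and 70.2 CPM in D (log2 FC 1.57, SE 0.09, adjusted p = 1.75e-07). Beta-amylases are the main source of maltose in leaves at night. Of the other 3 beta-amylase genes, LOC102584887 and LOC102584563 rose, with log2 FCs of 0.55 and 0.70, and LOC102590483 fell, with 28.1 ± 1.63 CPM in C and 40.4 ± 3.34 CPM in D (log2 FC -0.52, SE 0.10, adjusted p = 0.00144). DE2 and LOC102577824, both listed under a debranching term, rose by log2 FCs of 0.78 and 0.53. LOC102595076 (synonym dpeP), a glucanotransferase gene, overlapped between bulks, with 15.9, 22.6 and 22.6 CPM in C and 18.02 and 14.03 CPM in D (log2 FC 0.35, SE 0.16, adjusted p = 0.126). Its call turned on single libraries, since the adjusted p was 0.0156 without C1 and 0.0446 without D1.

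Phosphoglucomutases interconvert glucose 1-phosphate, the product of the phosphorylases, and glucose 6-phosphate. LOC102585015 (synonym PGMP, the plastid form) rose in C, with 156, 172 and 176 CPM in C and 111 and 98.3 CPM in D (log2 FC 0.68, SE 0.09, adjusted p = 0.000184). LOC102599849 rose as well, with a log2 FC of 0.61, while LOC102579912 (synonym PGM1) averaged 46.9 ± 1.93 CPM in C and 52.7 ± 2.16 CPM in D, short of the threshold (log2 FC -0.17, SE 0.08, adjusted p = 0.14), except with library totals alone (log2 FC -0.27, adjusted p = 0.0234). GWD3 was also listed under starch binding, and of the 2 other genes under that term LOC102586811 fell (log2 FC -0.38, adjusted p = 0.0114). LOC102606111, with under 10 CPM in every library, rose (log2 FC 0.43, adjusted p = 0.0449), a call that was lost in DESeq2 (adjusted p = 0.0935) and in limma's voom method (adjusted p = 0.0511). It was also lost without C2 (adjusted p = 0.159), C3 (0.125), D1 (0.154) or D2 (0.105).

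**Figure D3:**
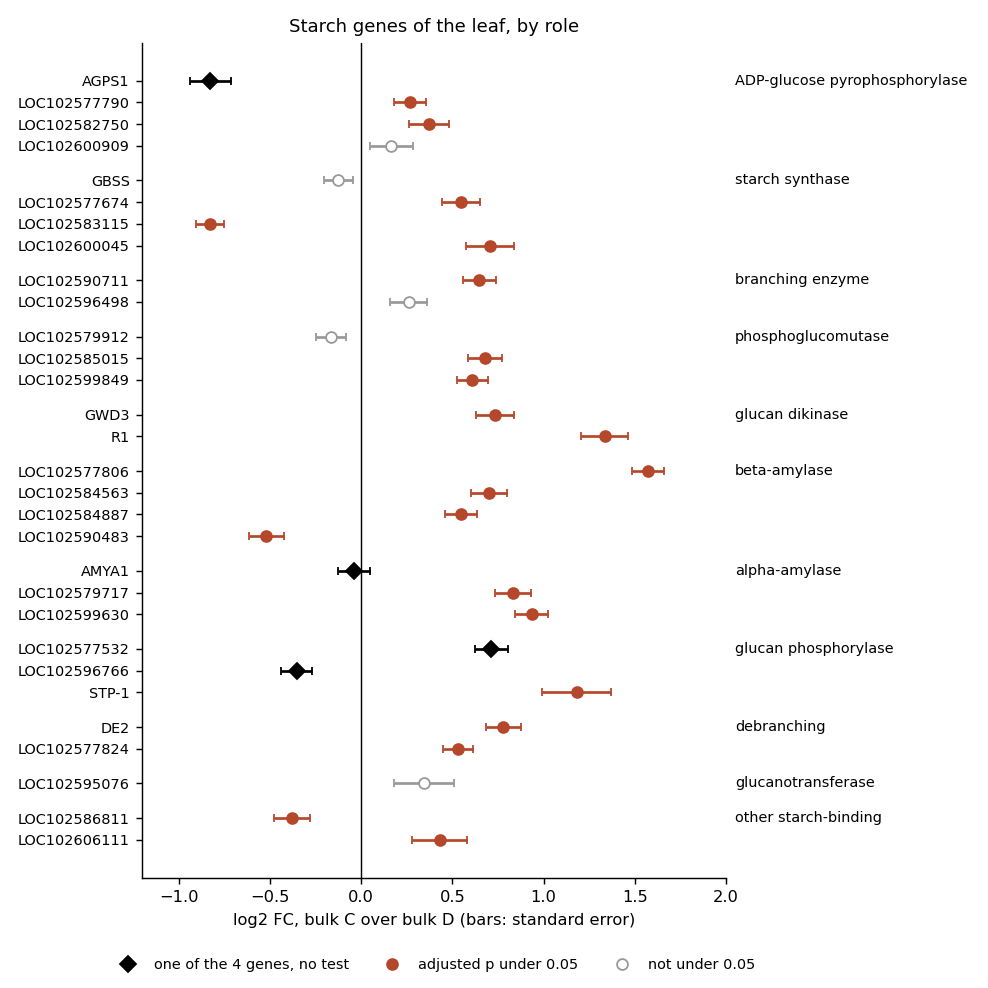
log2 FC (C over D) of the 4 genes (black diamonds, given with no test) and of the 26 other genes of the pathway, grouped by role, with bars of 1 SE on either side. Filled circles passed an adjusted p of 0.05 in edgeR's quasi-likelihood test and open circles did not. AGPS1 lies at -0.83 while the 3 listed genes of its enzyme lie between 0.17 and 0.37. AMYA1 lies at -0.04 beside listed alpha-amylase genes at 0.83 and 0.93, and LOC102577532 and LOC102596766 lie on opposite sides of 0.

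Among themselves the 4 genes did not share a profile. The distance between 2 genes was taken as the Euclidean distance of their log2(CPM + 0.5) values over the 5 libraries, each centred on its own mean, as a description of these libraries. AGPS1 and LOC102577532 were the farthest apart, at 1.68, and LOC102596766 and LOC102577532 were 1.19 apart. The nearest pair was LOC102596766 and AMYA1, at 0.41, followed by AGPS1 and LOC102596766, at 0.50. Among 13430 genes with a mean of at least 100 counts, the gene nearest to AGPS1 was LOC102596316, at 0.0264, with 97.6, 98.5 and 93.9 CPM in C and 157 and 179 CPM in D. It was followed by LOC102584392 and LOC102590329. Nearest to LOC102596766 were LOC102580943, at 0.018, LOC102601780 and LOC102581775. Nearest to AMYA1 were LOC102605502, at 0.0243, SERK3 and LOC102588275. For LOC102577532 they were LOC102605582, an uncharacterized gene at 0.0379, then LOC102585015, the plastid phosphoglucomutase, at 0.0499, and LOC102605959. LOC102585015 was the only gene of the starch list among these 12.

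Within the bulks the libraries were not evenly placed, and this touches how far each gene differed. In C, C1 was the lowest of the 3 libraries for LOC102577532 and AMYA1, C3 the lowest for AGPS1 and LOC102596766. For the list of 26, C1 was the lowest in 19 genes (73.1%), against 38.3% of all tested genes. In D, D1 lay above D2 for LOC102577532 and AMYA1 and below it for AGPS1 and LOC102596766. In the list D1 lay above D2 for 20 of 26 genes (76.9%), against 47.2% of all tested genes. In each of the 3 chosen genes whose bulks did not overlap D1 lay nearer to C than D2 did, and this was so for 80.0% of 25 listed genes and for 59.0% of 11213 genes whose bulks did not overlap. The part of these differences between libraries in the results was not tested.

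**Figure D4:**
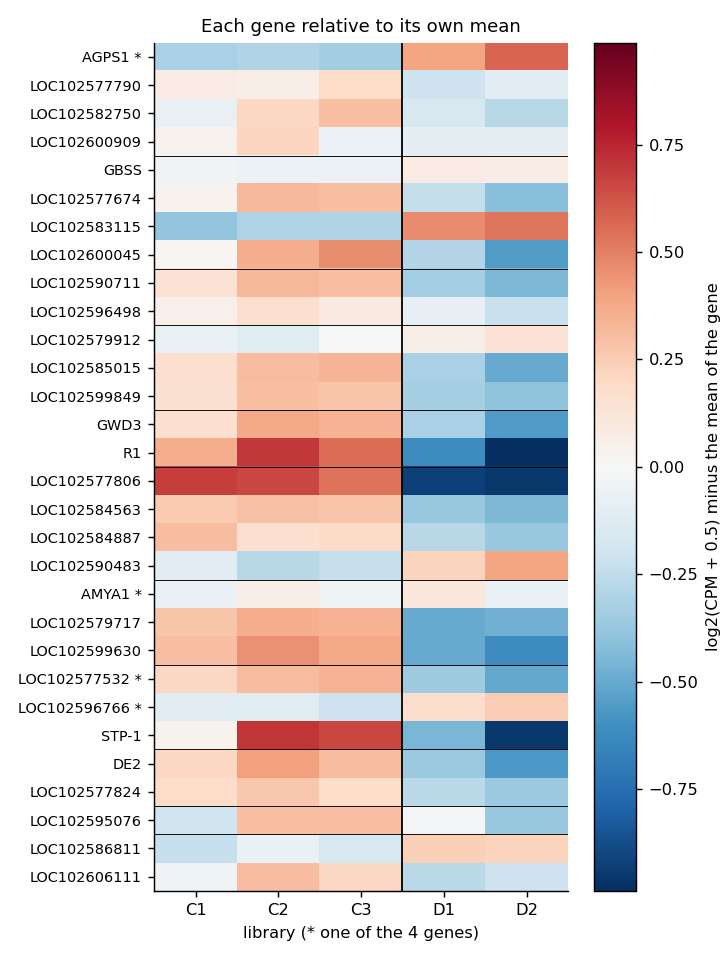
Colours give log2(CPM + 0.5) of each gene minus the mean of that gene over the 5 libraries (red above the mean, blue below), with libraries of C at the left of the upright line and those of D at its right, and an asterisk at the 4 genes. AGPS1 and LOC102596766 are blue in C and red in D together with the 3 listed genes that fell (LOC102583115, LOC102590483 and LOC102586811). GBSS and LOC102579912, which did not pass the test, also lie lower in every library of C than in D, by less. Most other genes show the opposite, and AMYA1 is pale in all 5 libraries.

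The annotation places the 4 genes on sequences of SolTub_3.0 not assigned to a chromosome. AGPS1 spans bases 264717 to 269687, LOC102596766 bases 998 to 3921, LOC102577532 bases 70084 to 83426 and AMYA1 bases 1835178 to 1840018 of its sequence. These are spans of genes with their introns, and no level per transcript length was computed, so ratios and shares of counts do not rank the genes by level. The libraries were made with a directional kit, but the strand setting of the counting is not given in the sources used here, so reads of a gene overlapping on the other strand may be included.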

How the data were processed

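The deposited values are raw counts of reads per gene, not normalized, which the authors made from 100-bp paired-end reads aligned to SolTub_3.0 with TopHat2 2.0.9 and Bowtie2 2.1.0 and counted with HTSeq. A check of all 163840 values used found whole numbers of 0 or more. The header holds 7 names over 1 field of genes and 6 of counts. Names were read as standing 1 field left of their counts, the reading on which the choice of the genes rests, and 1 count column was not used. On this reading that column falls to the name A1, which no sample of the series carries, and no column falls to D3. Among the libraries used, only the bulk of C3 depends on this reading.

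Genes with at least 10 counts, scaled to library size, in at least 2 libraries and 15 in all were fitted with edgeR 4.0.16 (TMM, quasi-likelihood test, Benjamini-Hochberg adjustment over all 19630 genes, no covariate) in R 4.3.3. The SE of a log2 FC was taken as its absolute value over the square root of the F statistic. The fit was tested on simulated data. CPM, ratios and distances were computed in Python 3.11.15. DESeq2 1.42.0, limma 3.58.1 (voom), other scaling, no filter, a replicate block, each library left out and stricter thresholds were alternatives. Leaving out a library of D leaves 1, assumed to vary like those of C. Depth differed little between libraries, and intervals cover counting error only.

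The members and lists were chosen with earlier results of these data known. Named were the 4 genes, each listed gene of a role with at most 4, and for each of the 4 the 3 genes with the nearest profile. Ratios with listed genes and the comparison of D1 and D2 were added after values were seen. PHA1 and PHA2, symbols on the list, name proton pumps in potato and were left out. Genes found by product name in an annotation and promoters were not analysed here. RefSeq names matched 32736 of 32768 symbols.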

Additional observations from a re-analysis of the deposited data

How the results depend on the processing

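With library totals alone, which shifted the median gene by -0.10, log2 FCs were -0.93 for AGPS1, -0.46 for LOC102596766, 0.61 for LOC102577532 and -0.14 for AMYA1, 1966 genes were higher in C (against 3111), and 5 listed genes were lower (against 3). At an adjusted p of 0.01, 4068 genes were called (against 6760), 1748 higher and 2320 lower. With an absolute log2 FC of at least 1, 1837 were called, 537 higher and 1300 lower, and of the listed genes 3, with 3 higher and 0 lower. With each library left out in turn, 4466 to 6849 genes were called, 2029 to 3038 higher and 2394 to 3811 lower, and 18 to 22 listed genes, 15 to 19 higher and 3 to 3 lower. The fewest came without D2 (4466), and without C3 there were 4640. The log2 FC of AGPS1 then lay between -0.93 and -0.73. The cause was not tested.

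With the replicate number as a block, 3448 genes were called, 1396 higher and 2052 lower. The labels tie the numbers to no shared batch, so the numbers were not taken as pairs. Across genes, which are not independent, C1 minus C2 correlated at -0.455 with D1 minus D2. C1 thus tended to differ from C2 as D2 differed from D1, a pattern common to both bulks. The main fit had no term for it, and its part in the results, those of the listed genes included, was not tested. Of the single listed genes, 261 alternatives left the call as it was, 5 brought a call and 20 lost one, 0 with a turned direction. The losses fell on LOC102577790, LOC102582750, LOC102606111 and LOC102586811. With 2 libraries of D and 3 of C, the number of libraries limits the precision, and for genes of few counts counting error does so as well. How much each contributes was not tested.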
